A study of Mus musculus with 8 samples.

Results

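The IκB kinases and the ubiquitin-editing proteins that restrain them were examined in mouse articular chondrocytes exposed to IL-1β. The group comprises 10 genes, chosen by name for their place in this circuit, with earlier results of these data known. They are the kinases *Chuk*, *Ikbkb*, *Ikbke* and *Tbk1*, the scaffold *Ikbkg*, and the feedback genes *Tnfaip3*, *Tnip1*, *Tnip2*, *Cyld* and *Otulin*. All 10 were present among the 54658 gene symbols of the count table, and all 10 passed the filter on low counts (CPM, the count of a gene relative to the total of its library, above 1 in at least 4 samples) that left 14404 genes for testing. Cartilage of the femoral head was taken from wild-type mice aged 3 weeks, and the primary chondrocytes released from it by collagenase received vehicle or IL-1β at 1 ng/mL for 24 h (n = 4 each). No genetic change was carried by either group, no strain or sex is stated, and whether the 4 samples of a group came from separate mice or separate cultures is not given, so the spread between samples may be technical. RNA was sequenced to 10992355 to 17104351 counts per sample with IL-1β and 13970959 to 17456063 with vehicle.

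IL-1β binds its receptor, which recruits ubiquitin ligases that build K63-linked and linear ubiquitin chains. The canonical IKK complex docks on these chains through its regulatory subunit NEMO (*Ikbkg*) and holds 2 catalytic kinases, IKKα (*Chuk*) and IKKβ (*Ikbkb*), which phosphorylate IκB proteins and so free NF-κB. The IKK-related kinases TBK1 (*Tbk1*) and IKKε (*Ikbke*) phosphorylate interferon regulatory factors and also act on parts of the NF-κB pathway. The chains are trimmed or shielded by A20 (*Tnfaip3*), by its partners ABIN-1 (*Tnip1*) and ABIN-2 (*Tnip2*), and by the deubiquitinases CYLD (*Cyld*) and OTULIN (*Otulin*). In cartilage this pathway is known for driving matrix-degrading enzymes and inflammatory mediators.

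The cells carried the transcripts of their labelled type. All 8 chondrocyte markers examined were measured, and their summed abundance was 16137 to 16751 CPM under vehicle and 4190 to 4602 CPM with IL-1β, all 8 being lower after IL-1β. Among 7 leukocyte markers, *Cd3e* was at 0 in every sample and *Adgre1* and *Itgam* had at most 3 counts in any sample. *Ptprc* had at most 6 counts, whereas *Csf1r* had 7 to 19 counts in every sample, and neither passed the filter on low counts. The summed leukocyte markers were 11.5 to 12.6 CPM under vehicle and 15.9 to 19.0 CPM with IL-1β, most of it from *Cd68*, a lysosomal gene that is not restricted to leukocytes. *Cd68* was higher with IL-1β (log2 fold change 0.67) and *Lyz2*, a lysozyme gene of myeloid cells, was lower (-0.60). The 4 endothelial markers summed to at most 1.25 CPM in any sample. The sums for 5 fibroblast markers were 81.8 to 87.9 CPM under vehicle and 107 to 112 CPM with IL-1β, and those for 4 osteoblast markers were 126 to 135 CPM and 50.2 to 58.4 CPM, respectively. The fibroblast list was split, with *Pdpn* (log2 fold change 2.26) and *Pdgfra* (0.58) higher and *Col3a1* lower (-0.34), and all 4 osteoblast markers were lower. The part of these shifts in the results below was not tested. In such bulk samples, fewer cells with a transcript and less of it per cell cannot be told apart.

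Of the 10 genes, 2 rose more than 2-fold (log2 fold change above 1 and Benjamini-Hochberg adjusted p under 0.05 in edgeR's quasi-likelihood test), against 2.86% of all genes tested. These were *Ikbke* and *Tnfaip3*. None fell more than 2-fold, against 2.35% of all genes tested, and the lowest log2 fold change among the 10 was -0.23. At an adjusted p under 0.05 without a threshold on the fold, 6 genes were higher after IL-1β (20.4% of all genes tested were) and 1, *Chuk*, was lower (19.8% were). In 7 of the 10 genes the samples of the treatments did not overlap, which held for 36.8% of all genes tested. The median log2 fold change was 0.335 for the 10 genes and -0.001 for all genes tested.

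**Figure D1:**
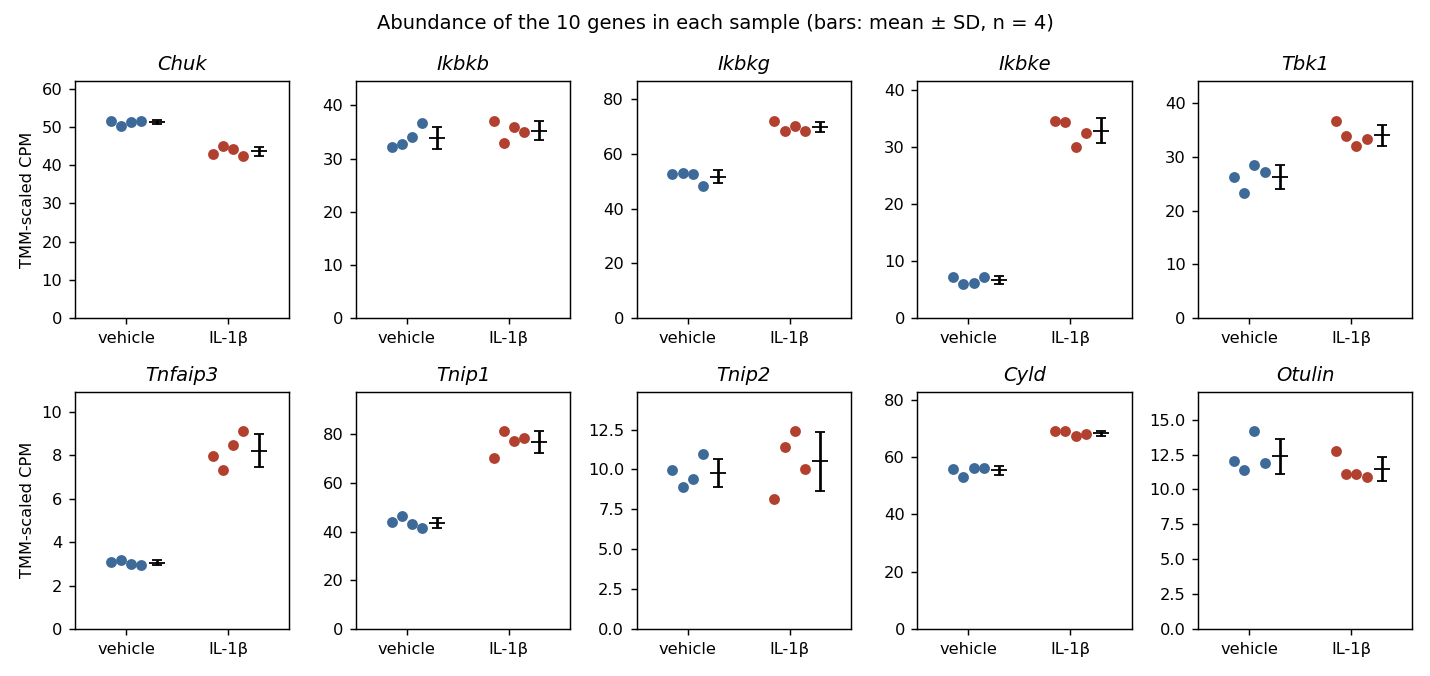
Abundance in TMM-scaled CPM (y axes, from 0) of each gene in the 4 vehicle samples (blue) and the 4 IL-1β samples (red), with the mean and SD beside the points. *Ikbke* lay between 5.97 and 7.32 CPM under vehicle and between 30.0 and 34.7 CPM with IL-1β, while *Ikbkb*, *Tnip2* and *Otulin* overlapped between the treatments.

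*Ikbke* (ENSMUSG00000042349.13, GRCm38 chr1:131254343-131279606, minus strand) encodes IKKε, an inducible kinase of the IKK-related pair. Its abundance was 7.23, 5.97, 6.22 and 7.32 CPM in vehicle replicates 1 to 4 and 34.7, 34.4, 30.0 and 32.6 CPM in IL-1β replicates 1 to 4. Every IL-1β sample thus lay more than 4 times above every vehicle sample. These abundances rest on 87 to 125 reads with vehicle and 384 to 504 reads with IL-1β. The log2 fold change was 2.29 (standard error 0.0803, 95% confidence interval 2.13 to 2.46, adjusted p = 1.1e-19 from edgeR), a 4.90-fold rise that ranked 90th from the top among the 14404 genes tested. On the opposite strand, the annotated genes *Gm28913* and *Gm28914* share 2.48% of its exon bases, and they held at most 9 and 6 reads per sample.

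*Tbk1* (ENSMUSG00000020115.3, GRCm38 chr10:121546455-121586787, minus strand), which encodes the constitutive partner of IKKε, responded less. It had 26.2, 23.2, 28.5 and 27.2 CPM in the vehicle samples and 36.7, 33.9, 32.1 and 33.2 CPM in the IL-1β samples. All IL-1β samples lay above all vehicle samples, by a log2 fold change of 0.37 (standard error 0.0606, 95% confidence interval 0.24 to 0.49, adjusted p = 1.18e-05 from edgeR).

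The unequal response of the pair was tested on the ratio of their counts within each sample, in which library scaling cancels. There were 0.277, 0.258, 0.220 and 0.270 reads of *Ikbke* per read of *Tbk1* in the vehicle samples and 0.946, 1.02, 0.937 and 0.981 in the IL-1β samples. The ratio was 3.80 times as high with IL-1β (exact permutation test over samples, two-sided, p = 0.0286, adjusted p = 0.0286 over the 4 pairs of genes compared). This is the smallest p that 4 samples against 4 allow.

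*Chuk* (ENSMUSG00000025199.16, GRCm38 chr19:44073335-44107480, minus strand), which encodes IKKα, was the gene of the group that fell. Vehicle samples held 51.6, 50.3, 51.4 and 51.6 CPM, and IL-1β samples held 42.9, 44.9, 44.1 and 42.5 CPM. The groups did not overlap, although the decrease was small, with a log2 fold change of -0.23 (standard error 0.0412, 95% confidence interval -0.32 to -0.15, adjusted p = 3.75e-05 from edgeR). *Ikbkb* (ENSMUSG00000031537.15, GRCm38 chr8:22659212-22706589, minus strand), encoding IKKβ, the main IκB kinase of the response to cytokines, had 32.1, 32.7, 34.1 and 36.7 CPM under vehicle and 37.2, 33.0, 35.9 and 34.9 CPM with IL-1β. These ranges overlapped, and the log2 fold change of 0.06 did not pass the test (adjusted p = 0.451 from edgeR). Its 95% confidence interval, -0.05 to 0.16, corresponds to changes of -3.66% to 12.1%.

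Reads of *Ikbkb* per read of *Chuk* were 0.622 to 0.712 with vehicle and 0.735 to 0.867 with IL-1β. The ratio was thus 1.22 times as high with IL-1β, without overlap (exact permutation test, two-sided, p = 0.0286, adjusted p = 0.0286 over 4 pairs, the smallest possible).

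*Ikbkg* (ENSMUSG00000004221.16, GRCm38 chrX:74393290-74453854, plus strand) encodes NEMO, the ubiquitin-binding scaffold without which the canonical kinases are not activated by cytokines. It had 52.7, 53.2, 52.9 and 48.2 CPM in vehicle samples and 72.2, 68.6, 70.4 and 68.4 CPM in IL-1β samples. The log2 fold change was 0.43 (standard error 0.0417, 95% confidence interval 0.35 to 0.52, adjusted p = 1.01e-09 from edgeR), and the lowest IL-1β sample exceeded the highest vehicle sample. *Ikbkg* starts beside *G6pdx*, which encodes the first enzyme of the pentose phosphate pathway, and 5.15% of the exon bases of *Ikbkg* are shared with *G6pdx* on the opposite strand. *G6pdx* itself had 73.0 ± 1.10 CPM under vehicle and 92.6 ± 6.16 CPM with IL-1β (SD, n = 4), and whether reads of the shared bases were told apart by strand is not given in the sources used here.

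*Tnfaip3* (ENSMUSG00000019850.11, GRCm38 chr10:19000910-19015657, minus strand) encodes A20, which removes K63-linked chains, binds linear chains and limits IKK activation. It was the scarcest of the 10 genes, with 3.07, 3.19, 3.00 and 2.97 CPM in the vehicle samples and 7.96, 7.31, 8.46 and 9.11 CPM in the IL-1β samples. The lowest IL-1β sample was more than 2 times the highest vehicle sample. Only 42 to 55 reads per vehicle sample and 88 to 142 reads per IL-1β sample underlie these abundances, and the interval is wider than for *Ikbke*. The log2 fold change was 1.42 (standard error 0.124, 95% confidence interval 1.17 to 1.68, adjusted p = 1.27e-10 from edgeR), a 2.68-fold rise that ranked 236th from the top among the 14404 genes tested.

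*Tnip1* (ENSMUSG00000020400.17, GRCm38 chr11:54910785-54962917, minus strand) encodes ABIN-1, an adaptor that binds ubiquitin chains and brings A20 to its substrates. It had 43.9, 46.3, 43.0 and 41.3 CPM under vehicle and 70.4, 81.3, 77.3 and 78.5 CPM with IL-1β. The groups were far apart relative to their spread (log2 fold change 0.82, standard error 0.0462, 95% confidence interval 0.72 to 0.91, adjusted p = 8.56e-15 from edgeR). *Tnip2* (ENSMUSG00000059866.13, GRCm38 chr5:34496087-34513991, minus strand), encoding ABIN-2, had 9.96, 8.93, 9.37 and 10.9 CPM under vehicle and 8.14, 11.4, 12.4 and 10.0 CPM with IL-1β. Its IL-1β samples spanned the whole range of the vehicle samples, and its log2 fold change of 0.12 (95% confidence interval -0.11 to 0.35) did not pass the test (adjusted p = 0.428 from edgeR). There were 3.77 to 5.17 reads of *Tnip1* per read of *Tnip2* with vehicle and 6.23 to 8.61 with IL-1β, a ratio 1.66 times as high (exact permutation test, two-sided, p = 0.0286, adjusted p = 0.0286 over 4 pairs, the smallest possible).

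*Cyld* (ENSMUSG00000036712.15, GRCm38 chr8:88697028-88751945, plus strand) encodes a deubiquitinase that cleaves both K63-linked and linear chains. Its 4 vehicle samples held 56.0, 53.2, 56.4 and 56.1 CPM and its 4 IL-1β samples 69.1, 69.0, 67.3 and 67.9 CPM. The rise was small and without overlap (log2 fold change 0.30, standard error 0.039, 95% confidence interval 0.22 to 0.38, adjusted p = 2.44e-07 from edgeR). *Otulin* (ENSMUSG00000046034.8, GRCm38 chr15:27542635-27630693, minus strand), whose product cleaves linear chains alone, had 12.0, 11.4, 14.2 and 11.9 CPM under vehicle and 12.7, 11.1, 11.1 and 10.9 CPM with IL-1β. The treatments overlapped, and the log2 fold change of -0.11 (95% confidence interval -0.30 to 0.08) did not pass the test (adjusted p = 0.365 from edgeR). Between the deubiquitinases A20 and CYLD, reads of *Tnfaip3* per read of *Cyld* were 0.0534 to 0.0604 with vehicle and 0.106 to 0.134 with IL-1β, a ratio 2.16 times as high (exact permutation test, two-sided, p = 0.0286, adjusted p = 0.0286 over 4 pairs, the smallest possible).

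**Figure D2:**
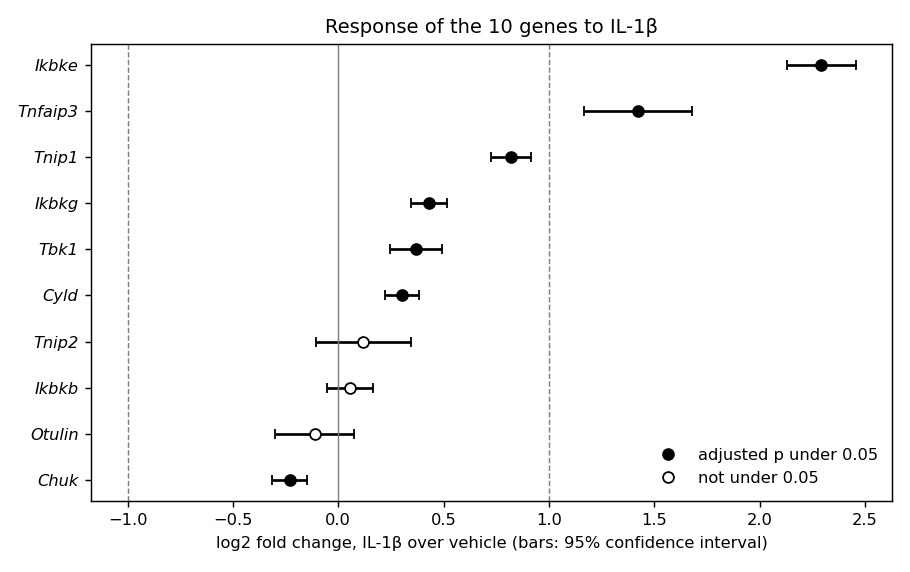
Log2 fold change of IL-1β over vehicle (x axis) for each of the 10 genes, with the 95% confidence interval from edgeR as bars and dashed lines at -1 and 1. *Ikbke* (2.29) and *Tnfaip3* (1.42) lay beyond 1 with their whole intervals, and the open points *Tnip2*, *Ikbkb* and *Otulin* had intervals that include 0.

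**Figure D3:**
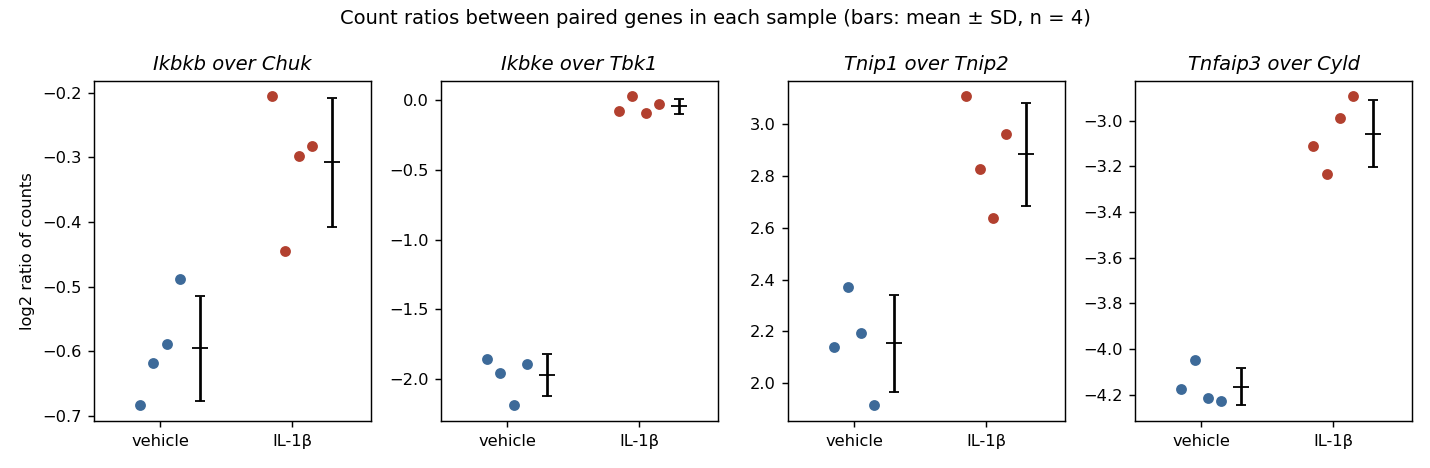
Log2 ratio of read counts (y axes, each with its own range) between paired genes in each vehicle (blue) and IL-1β (red) sample, with the mean and SD. All 4 ratios were higher in every IL-1β sample than in every vehicle sample, and *Ikbke* over *Tbk1* moved most, by 1.93 on the log2 scale.

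Levels were compared between genes as CPM per kilobase of exon, since a longer transcript yields more reads. With the gene lengths deposited beside the counts (all annotated exons joined), *Tnip1* was the most abundant of the 10 genes with either treatment, at 12.3 ± 0.579 CPM per kilobase with vehicle and 21.7 ± 1.31 with IL-1β (SD, n = 4). *Tnfaip3* was the least abundant with either, at 0.423 ± 0.0134 and 1.14 ± 0.106 CPM per kilobase. With vehicle, *Chuk* followed *Tnip1* at 10.1 CPM per kilobase, then *Otulin* (7.30), *Tbk1* (6.72), *Ikbkg* (6.38), *Cyld* (4.41), *Tnip2* (3.65), *Ikbkb* (1.78) and *Ikbke* (0.742). The samples of *Otulin* and *Tbk1* overlapped, as did those of *Tbk1* and *Ikbkg*, and the other neighbours in this order did not. With IL-1β, *Tbk1*, *Ikbkg* and *Chuk* lay close together at 8.69, 8.62 and 8.57 CPM per kilobase, and the samples of each overlapped with those of its neighbour. *Ikbke* reached 3.65 CPM per kilobase with IL-1β, beside *Tnip2* at 3.91, again with overlapping samples.

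The places of several genes in this order depended on the length used, among them *Ikbkb*, *Ikbke* and *Otulin*. For *Ikbkb* the joined exons span 19078 bases, whereas its transcript with the longest coding sequence has 3580 bases. Per kilobase of the latter, *Ikbkb* had 9.48 ± 0.571 CPM under vehicle and 9.84 ± 0.489 with IL-1β (SD, n = 4), and it overlapped with *Tbk1* (8.69) with vehicle. For *Ikbke*, with 9018 and 3251 bases, the level with IL-1β was 10.1 ± 0.664 CPM per kilobase of the coding transcript, which overlapped with *Tbk1* (11.2) and *Ikbkg* (10.1) and no longer with *Tnip2* (5.19). *Otulin* moved from place 3 to 5 with vehicle and from 5 to 8 with IL-1β. *Tnfaip3* was last by either length. *Tnip1* had the highest mean by either length, but with vehicle its samples overlapped with those of *Chuk* per kilobase of the coding transcript (14.7 and 14.6).

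The makeup of the 4 kinase transcripts shifted. Per kilobase of the deposited lengths, *Ikbke* made up 4.15%, 3.64%, 3.48% and 4.09% of the summed kinase transcripts in the vehicle samples and 16.3%, 16.6%, 15.1% and 16.2% in the IL-1β samples. *Chuk* made up 52.2% ± 1.61 with vehicle and 37.7% ± 1.52 with IL-1β, *Tbk1* 34.8% ± 1.68 and 38.2% ± 1.15, and *Ikbkb* 9.21% ± 0.443 and 8.12% ± 0.432 (SD, n = 4). The sum itself rose, from 19.3 ± 0.778 CPM per kilobase with vehicle to 22.8 ± 0.703 with IL-1β (34.9 and 43.7 by the coding transcript lengths). A share could therefore fall without a fall of its transcript, as for *Ikbkb* (log2 fold change 0.06, not passing the test). With the coding transcript lengths, the share of *Ikbke* was 5.90% ± 0.501 with vehicle and 23.2% ± 1.02 with IL-1β. Those of *Chuk* were then 42.0% and 28.5%, and those of *Ikbkb* 27.2% and 22.6%. The shares of *Tbk1* were 24.9% and 25.7% by these lengths, and its samples overlapped between the treatments, which they did not by the deposited lengths. By either length, the share of *Ikbke* in every IL-1β sample lay above that in every vehicle sample. The coding transcript length was added after seeing the data.

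The promoters of the group were searched for the κB consensus, the decamer that NF-κB dimers bind. RefSeq windows from 250 bases before to 50 bases after each transcript start (GRCm38.p6) were found for 9 of the 10 genes, 13 windows in all, and *Ikbkb* had none. On either strand, 3 of these 9 genes held at least 1 match, namely *Tnfaip3*, *Tnip1* and *Cyld*. Of the 27025 gene symbols with such windows, 5.14% held a match. Each of the 3 genes is a feedback gene that was higher after IL-1β, but *Ikbke*, the gene that rose most, and *Ikbkg* and *Tbk1*, which were also higher, held no match in their windows. *Chuk*, *Tnip2* and *Otulin* held none either. The absence of these letters within 300 bases says nothing about more distant sites. *Tnfaip3* had matches at positions -125 to -116 and, on the other strand, at -12 to -3, counted from the RefSeq start of its first promoter. *Tnip1* had 4 overlapping matches, 2 on each strand, within the palindrome from -58 to -47, and *Cyld* had 1 on the other strand at -155 to -146. With a looser form of the consensus, 6 of the 9 genes held a match, against 12.6% of all gene symbols. The 3 added were *Ikbkg*, which was higher, *Chuk*, which was lower, and *Tnip2*, which did not pass the test.

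The bases upstream of the start are shown for the 3 genes with a match and for *Ikbke*, to set the matched promoters beside that of the strongest responder. They are written 5′ to 3′ along the transcribed strand with the matched bases in capitals. Only bases outside the GENCODE exons of the gene itself are given, and exons of other genes were not checked. The stretches are chr10:19015411-19015547 for *Tnfaip3*, chr11:54962941-54963190 for *Tnip1* and chr1:131279607-131279813 for *Ikbke*, all on the minus strand, and chr8:88696778-88697027 on the plus strand for *Cyld*. They cover positions -137 to -1 in *Tnfaip3*, within an intron of its GENCODE model, -250 to -1 in *Tnip1* and *Cyld*, and -250 to -44 in *Ikbke*, the last 3 lying upstream of the annotated gene.
*Tnfaip3*: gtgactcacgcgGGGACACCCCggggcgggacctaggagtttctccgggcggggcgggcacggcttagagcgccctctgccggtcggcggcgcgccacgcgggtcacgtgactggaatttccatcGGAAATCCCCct
*Tnip1*: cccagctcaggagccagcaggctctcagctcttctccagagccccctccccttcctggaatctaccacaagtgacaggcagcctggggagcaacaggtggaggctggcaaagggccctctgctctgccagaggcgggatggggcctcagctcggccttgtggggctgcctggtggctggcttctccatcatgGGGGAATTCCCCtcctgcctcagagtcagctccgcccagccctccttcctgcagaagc
*Cyld*: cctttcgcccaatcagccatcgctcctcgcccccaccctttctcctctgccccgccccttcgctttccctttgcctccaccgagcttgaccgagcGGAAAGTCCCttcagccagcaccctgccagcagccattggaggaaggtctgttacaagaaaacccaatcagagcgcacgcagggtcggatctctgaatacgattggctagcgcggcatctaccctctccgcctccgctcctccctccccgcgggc
*Ikbke*: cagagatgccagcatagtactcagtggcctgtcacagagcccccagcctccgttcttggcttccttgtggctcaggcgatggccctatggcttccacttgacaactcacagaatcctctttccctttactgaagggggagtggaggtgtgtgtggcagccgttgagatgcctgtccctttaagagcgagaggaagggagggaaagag

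**Figure D4:**
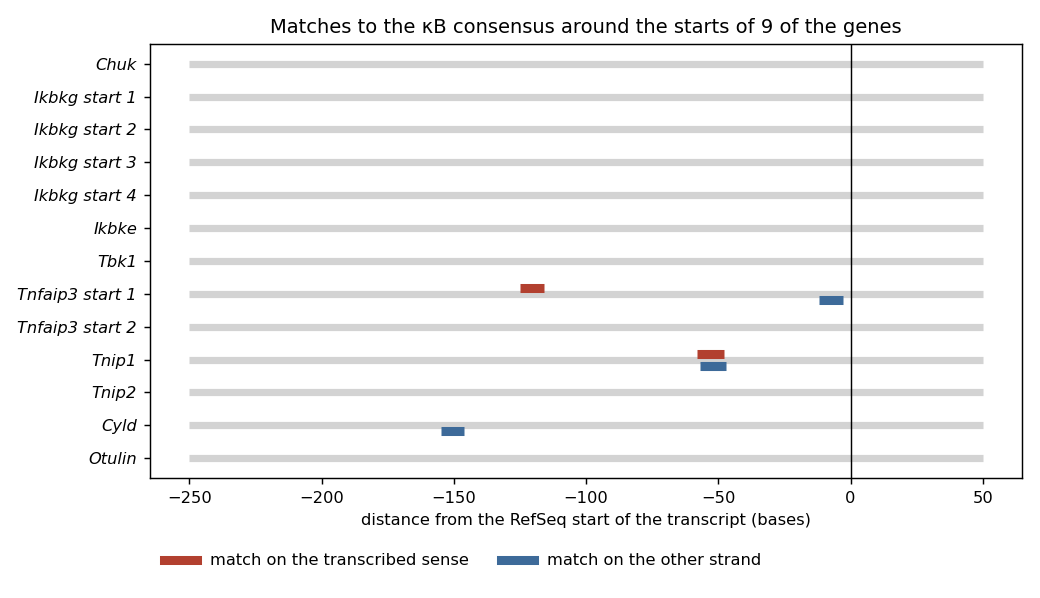
Position of matches to the κB consensus (coloured bars, red on the transcribed sense and blue on the other strand) in the 13 windows of 9 genes, drawn against the distance in bases from the RefSeq start (vertical line). Matches lay upstream of the start in *Tnfaip3* (start 1), *Tnip1* and *Cyld*, and the other 10 windows held none.

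To place the 10 genes in their pathway, 53 further genes in 7 lists were followed, of which 52 were tested. Of these, 27 were higher and 3 lower at an adjusted p under 0.05 (edgeR), and 7 rose more than 2-fold. Both the 27 and the 7 include *Peli3*, which passed the filter on low counts through its IL-1β samples. Of all genes tested, 20.4% were higher, 19.8% lower and 2.86% beyond 2-fold higher. None of the 52 genes fell more than 2-fold (2.35% of all genes tested did), their lowest log2 fold change being -0.245. Their abundances are given as mean ± SD (n = 4). The median over the 52 genes was 0.19, against -0.001 over all genes tested.

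The genes for the IκB proteins and NF-κB subunits, on which the kinases act, rose together. All 10 were higher after IL-1β (20.4% of all genes tested were), with a median log2 fold change of 0.94. More than 2-fold rises were seen in 4 (2.86% of all genes tested). *Nfkbiz*, encoding the inducible nuclear IκBζ, rose (mean CPM 44.5 ± 2.06 with vehicle, 276 ± 8.45 with IL-1β, log2 fold change 2.63). *Nfkbia*, encoding IκBα, the inhibitor that IKKβ marks for degradation, rose (mean CPM 27.1 ± 2.08 with vehicle, 101 ± 3.63 with IL-1β, log2 fold change 1.89). *Bcl3*, an atypical IκB, and *Relb*, the partner of p52, had log2 fold changes of 1.93 and 1.13, respectively.

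The ubiquitin ligases and conjugating enzymes that build K63-linked chains and the cIAP ligases were mixed. Of these 10 genes, 4 were higher (20.4% of all genes tested were) and 1 was lower (19.8% were). The lower gene was *Ube2n* (log2 fold change -0.245), singled out once its values were known. *Peli3*, a Pellino ligase, rose (mean CPM 0.810 ± 0.177 with vehicle, 2.89 ± 0.253 with IL-1β, log2 fold change 1.84) and was the only gene of this list beyond 2-fold. With 10 to 15 reads per vehicle sample, it passed the filter on low counts through its IL-1β samples, so that a gene at this level could enter the test only if it was higher with IL-1β. *Traf2* rose (mean CPM 21.3 ± 0.454 with vehicle, 41.7 ± 1.37 with IL-1β, log2 fold change 0.97). The median of the list was 0.09.

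Among the 3 subunits of LUBAC, the ligase that makes linear chains, *Rnf31*, its catalytic subunit, was higher (log2 fold change 0.25, adjusted p = 0.00237 from edgeR), with overlapping samples, and *Rbck1* was lower (log2 fold change -0.17, adjusted p = 0.000126). *Sharpin* had a log2 fold change of -0.03 and did not pass the test. Of 4 tested partners of A20 and the ABINs, 2 were higher (20.4% of all genes tested were). *Rnf11*, a ligase of the A20 complex, rose (mean CPM 174 ± 4.17 with vehicle, 237 ± 11.6 with IL-1β, log2 fold change 0.445). *Optn*, a ubiquitin-binding adaptor of TBK1, rose likewise (mean CPM 30.1 ± 1.79 with vehicle, 38.1 ± 1.26 with IL-1β, log2 fold change 0.34). *Tnip3*, the third ABIN gene, was below the filter, at 0.0145 CPM under vehicle and 0.0992 CPM with IL-1β on average.

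Of 8 other deubiquitinase genes, counting the CYLD adaptor *Spata2* and the OTULIN-like *Otulinl*, 4 were higher and none was lower. Of all genes tested, 20.4% were higher and 19.8% lower. *Otulinl*, whose product lacks deubiquitinase activity, rose (mean CPM 1.52 ± 0.450 with vehicle, 3.41 ± 0.506 with IL-1β, log2 fold change 1.13, adjusted p = 4.19e-05 from edgeR). For *Otud1* the log2 fold change was 0.24 (adjusted p = 0.036 from edgeR). This call was lost with DESeq2 (adjusted p = 0.0882), as was that of *Usp21*, singled out once its values were known (adjusted p = 0.0965). With DESeq2, 2 of the 8 genes were thus left as higher, near the 20.4% that edgeR called higher over all genes tested. The count was also 2 in edgeR without IL-1β replicate 2 or 3, or without vehicle replicate 1 or 4.

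Of 5 genes for adaptors and substrates of TBK1 and IKKε, 3 were higher (20.4% of all genes tested were), and all 3 are adaptors. *Tank* rose (mean CPM 18.7 ± 0.160 with vehicle, 24.6 ± 1.15 with IL-1β, log2 fold change 0.40), as did *Tbkbp1* (mean CPM 6.59 ± 0.556 with vehicle, 8.58 ± 0.751 with IL-1β, log2 fold change 0.38). The third adaptor, *Azi2*, singled out once its values were known, had a log2 fold change of 0.23. The substrates *Irf3* and *Irf7* had log2 fold changes of 0.04 and 0.32 and did not pass the test (adjusted p = 0.545 and 0.246 from edgeR).

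Of the 12 genes for kinases and chaperones that act on IKK, 3 were higher (20.4% of all genes tested were), 1 was lower (19.8% were) and 8 passed in neither direction, among them *Map3k7*, which encodes the IKK-activating kinase TAK1 (log2 fold change 0.01). *Map3k8*, encoding TPL2, a MAP3K held by p105, rose (mean CPM 6.02 ± 0.622 with vehicle, 15.2 ± 0.771 with IL-1β, log2 fold change 1.33, adjusted p = 2.79e-12 from edgeR). *Hsp90ab1*, an abundant chaperone of the kinases, rose (mean CPM 1356 ± 35.6 with vehicle, 1562 ± 16.2 with IL-1β, log2 fold change 0.20). The single lower gene, *Map3k3* (log2 fold change -0.095, singled out once its values were known), had an adjusted p of 0.0417 from edgeR and of 0.0943 from DESeq2, and its call was lost without IL-1β replicate 2, 3 or 4 or without vehicle replicate 2, 3 or 4 (adjusted p from 0.0601 to 0.176). The median of the list was 0.02.

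**Figure D5:**
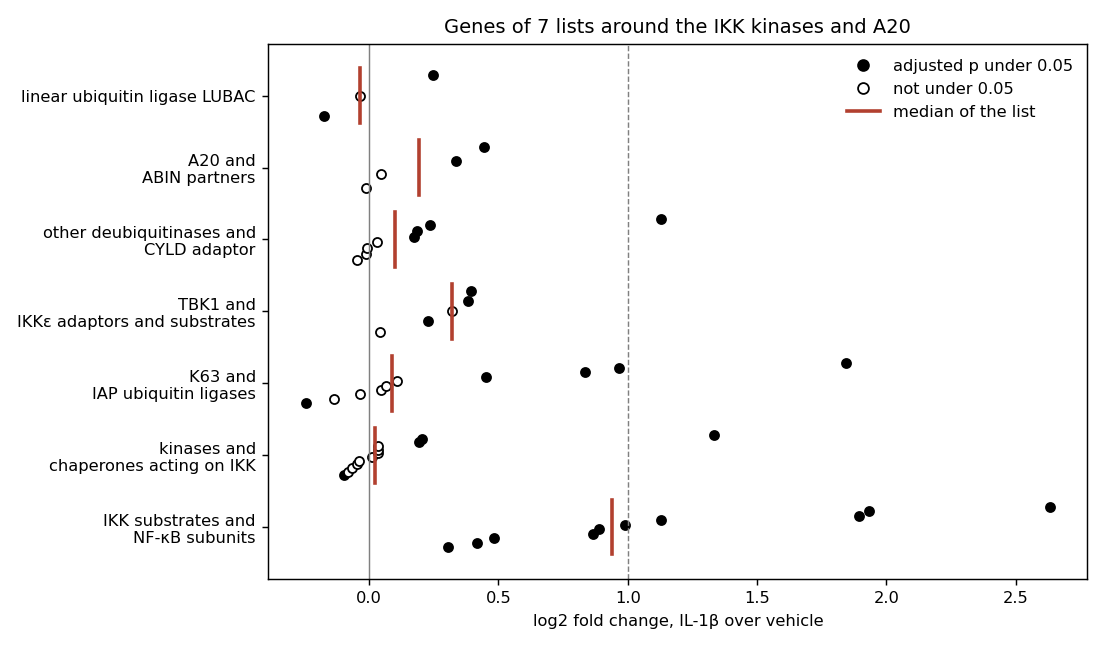
Log2 fold change of IL-1β over vehicle (x axis) for the 52 tested genes of the 7 lists (rows), filled where the adjusted p was under 0.05, with red lines at the list medians. All 10 genes of the bottom row, the IκB proteins and NF-κB subunits, lay above 0, with a median of 0.94, while the kinases and chaperones clustered near 0 with a median of 0.02.

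The genes whose log2 CPM followed each strong responder most closely over the 8 samples were described by Pearson's r. For *Ikbke* these were *Sash1*, *Tfrc* and *Gsr* (r = 0.9986, 0.9981 and 0.9979), and for *Tnfaip3* they were *Aldoa*, *Acly* and *Pkm* (r = 0.9991, 0.9986 and 0.9982). The 8 points of each relation fall into the 2 treatment groups and share their libraries, and 918 and 942 genes had an r above 0.95, respectively.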

How the data were processed

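RNA-Seq of 8 samples (4 IL-1β, 4 vehicle) was analysed, grouped by the treatment in the sample titles. The authors used cutadapt for trimming, STAR for alignment (mm10, GENCODE vM20) and featureCounts for quantification. They deposited counts with 1 row per gene symbol. Whether these precede the RUVseq batch correction of the methods is not stated. The table also holds deposited gene lengths in bases (unit: other), which were equal to the joined exons of GENCODE vM21 for all 10 genes.

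Counts were scaled by TMM (factors 0.984 to 1.01) and tested by the quasi-likelihood method of edgeR 4.0.16 (R 4.3.3) across the 14404 genes whose CPM exceeded 1 in 4 or more samples, with treatment as the only term and Benjamini-Hochberg adjustment over all genes. At these totals 3 counts are 0.172 to 0.273 CPM, and this covers counting error only, since no molecular identifiers are described. Libraries of a group differed by more than counting error (chi-square per degree of freedom 1.98 to 6.34). In a simulation of this comparison (200 of 14404 genes changed), edgeR recovered 99% and DESeq2 98% of these. False calls at the adjusted p numbered 17 and 8, respectively, and 2 and 0 where no gene was changed. The power for changes as small as those of *Chuk*, *Cyld* and *Tbk1* was not tested. What could have been missed in *Ikbkb*, *Tnip2* and *Otulin* was not tested either. Count ratios had 0.5 added to each count and were tested by an exact permutation test (scipy 1.17.1). The other Python work used version 3.11.15 with numpy 2.4.6 and pandas 2.3.3, and figures were drawn with matplotlib 3.10.9. Pearson's r used log2(CPM + 0.1).

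The genes, pairs and lists were chosen with earlier results of these data known. From each list, genes beyond 2-fold were named, and where these were fewer than 2, the largest changes past the adjusted p were added up to 2, and other list genes in the text were chosen after their values were seen. A marker of the leukocyte list is not reported here and was left out of its sum. Alternatives were DESeq2 1.42.0, DESeq2 size factors or total library size in edgeR, no filter or a CPM above 1 in all 8 samples, the replicate number as a block, 1 factor of unwanted variation (RUVs, written out in R), glmTreat and each sample left out.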

Additional observations from a re-analysis of the deposited data

Results flagged for a closer look

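In 6 of the 54 groups of 4 values examined (CPM of the 10 genes and of the 16 named pathway genes, and total counts, per treatment), the highest or lowest sample lay farther from the other 3 than Dixon's 95% critical value of 0.829 allows. About 1 group in 20, or 2.7 here, would do so by chance. For *Ikbkg* this was vehicle replicate 4, at 48.2 CPM (the remaining vehicle samples 52.7 to 53.2), and for *Cyld* vehicle replicate 2, at 53.2 CPM (the rest 56.0 to 56.4). For *Otulin* it was IL-1β replicate 1, at 12.7 CPM (the rest 10.9 to 11.1). Without that sample the log2 fold change of *Otulin* was -0.16 (adjusted p = 0.209 from edgeR), and the gene still did not pass the test. Of the pathway genes, *Rnf31* had 23.1 CPM in IL-1β replicate 1 (the others 26.3 to 26.7), *Tank* had 22.9 CPM in IL-1β replicate 4 (the others 25.2), and *Bcl3* had 25.9 CPM in vehicle replicate 2 (the others 23.4 to 23.7). No call of the 10 genes depended on these samples.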

How the results depend on the processing

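The direction and the side of the threshold were kept in all 150 recomputed log2 fold changes of the 10 genes (DESeq2, other scalings and filters, the replicate block, a factor of unwanted variation and each sample left out). Across these, *Ikbke* ranged from 2.24 to 2.34 and *Tnfaip3* from 1.37 to 1.48, and glmTreat against a log2 fold change of 1 still called 2 genes higher and 0 lower. Same-numbered samples did not deviate together (correlations of -0.0699 to 0.0415), and with the replicate number as a block 6 of the genes remained higher and 1 lower at the adjusted p. Of 168 pathway list counts, 157 stayed within 1.5 times. The other deubiquitinases that were higher (4) numbered 2 with DESeq2 and 2 to 4 with a sample left out, and 3 with the block. The kinases and chaperones that were lower (1) numbered 0 with DESeq2, where 1 had an unadjusted p under 0.05 as in edgeR, and 0 to 1 with a sample left out. The looser κB consensus matched 6 genes in place of 3. With the coding transcript length, chosen after seeing the data, the share of *Ikbke* was 23.2% with IL-1β and 5.90% with vehicle. The cause of these shifts was not tested. Without 1 sample, the count ratios of the 4 pairs cannot reach an exact p under 0.05. The low counts of *Tnfaip3*, *Tnip2* and *Otulin* limit what could be detected in them.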
